A study of Mus musculus with 2 samples.

Results

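The miR-181 family comprised 4 mature 5p arms on the array, mmu-miR-181a-5p, mmu-miR-181b-5p, mmu-miR-181c-5p and mmu-miR-181d-5p (mmu marks the mouse and is left out below), of 1247 mouse miRNAs with probes. The members were taken by name. The tissue was knee articular cartilage of male mice aged 8 weeks. There was 1 sample labelled Col2a1Tsc1KO, with a deletion of Tsc1 specific to Col2a1, a collagen gene of cartilage cells, and 1 control sample labelled wildtype. Each was hybridised to 1 one-colour (Cy3) Agilent miRNA array, and both arrays lay on 1 slide. The labels give neither the number of mice behind each sample nor the Cre line or other means of the deletion. With 1 array per group no difference has a replicate check, and no p-value was computed.

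miRNAs are short RNAs that guide the silencing complex to messenger RNAs, mainly through the seed, bases 2 to 8 from the 5′ end. The miR-181 family is best known from lymphocyte development, where miR-181a tunes the sensitivity of the T cell receptor, and from vascular inflammation, where miR-181b dampens NF-kB signalling. In joints, miR-181a-5p has been studied as a mediator of cartilage breakdown in osteoarthritis. Tsc1, with its partner Tsc2, restrains the growth kinase complex mTORC1.

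The mature sequences from RefSeq (build GRCm38.p6) are shown because the 4 members share 1 seed, here in capitals, and differ only downstream of it.

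miR-181a-5p: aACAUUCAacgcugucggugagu

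miR-181b-5p: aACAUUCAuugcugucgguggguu

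miR-181c-5p: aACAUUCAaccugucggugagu

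miR-181d-5p: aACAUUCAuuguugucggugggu

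All 4 carried the seed ACAUUCA, and no other of the 1679 mature mouse miRNAs in the RefSeq table did. Counted from the 5′ end of the first-named miRNA, miR-181a-5p and miR-181b-5p differ by the substitutions A9U, C10U and A21G. miR-181b-5p and miR-181d-5p differ by C12U alone over the bases they share. miR-181c-5p aligned to miR-181a-5p with 22 identical bases and 1 gap.

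The 6 genes of the family lie in 3 pairs. Mir181a-1 and Mir181b-1 are on chromosome 1, with 97 bases between the hairpins, and Mir181a-2 and Mir181b-2 are on chromosome 2, with 1019 bases between them. Mir181c and Mir181d are on chromosome 8, on the minus strand, with 85 bases between them. miR-181a-5p is made from chr1:137966468-137966490 and chr2:38852741-38852763, and miR-181b-5p from chr1:137966650-137966673 and chr2:38853845-38853868. An array signal of either arm therefore cannot be assigned to a locus. miR-181c-5p lies at chr8:84178924-84178945 and miR-181d-5p at chr8:84178759-84178781. The chromosome 2 pair is within the spans of Nr6a1, an orphan nuclear receptor gene, and of the long non-coding RNA Nr6a1os. No other gene of the RefSeq table overlapped the pairs on chromosomes 1 and 8.

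Each 5p arm had 2 probes, DNA strands that pair with the 3′ part of the miRNA, and each probe was printed on 20 spots. The probe sequences are shown because they bear on how far the array can separate such similar RNAs. Capitals mark the bases left unpaired by the most similar other 5p arm or arms.

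miR-181a-5p, 14-base probe: acTcaccgacagCG

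miR-181b-5p, 14-base probe: acccaccgacaGca

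miR-181c-5p, 19-base probe: actcaccgacagGTtGAaT

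miR-181d-5p, 17-base probe: acccaccgacaAcaatg

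Every 5p probe paired in full with its own miRNA and with no other RefSeq mouse miRNA. The 14-base miR-181a-5p probe left 2 bases unpaired with miR-181b-5p and with miR-181c-5p. Its 13-base probe, not shown, left only 1 unpaired with each of these arms. The 13-base miR-181b-5p probe left 1 unpaired with miR-181a-5p and with miR-181d-5p. The 14-base miR-181b-5p probe left 1 base unpaired with miR-181d-5p, and the 17-base miR-181d-5p probe left 1 unpaired with miR-181b-5p. The 19-base miR-181c-5p probe left 5 unpaired with its nearest relative, miR-181a-5p, in an ungapped match. How much signal a probe takes from another member was not tested, so the members' values may not be independent.

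On the arrays as a whole, 21.1% of miRNA spots on the Col2a1Tsc1KO array and 19.6% on the control array stood well above background. None was saturated. Of the chondrocyte list, 6 of 9 miRNAs passed that limit on both arrays. They included the cartilage miRNA miR-140-5p, with mean intensities of 3128 on the Col2a1Tsc1KO array and 907 on the control array. The Tsc1 mRNA has no probe on a miRNA array, so the knockout itself could not be checked. Among probes that passed it on both arrays, the 75th percentile of intensity was 470.0 on the Col2a1Tsc1KO array and 353.6 on the control array, a ratio of 1.33. Intensities below are background-subtracted values as deposited, in arbitrary units and not scaled between arrays. Log2 differences, Col2a1Tsc1KO minus control, are after scaling each array to this percentile, which takes 0.41 off the unscaled log2 difference. Errors are standard errors (SE) over spots and hold technical noise only.

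miR-181a-5p and miR-181b-5p stood over 2-fold higher on the Col2a1Tsc1KO array, and the dim miR-181d-5p stood higher by a smaller amount. miR-181c-5p was well above background on the Col2a1Tsc1KO array alone. All 3 members measured on both arrays had a positive difference, while 152 of the 257 miRNAs so measured had a negative one. The median was 1.06 over the 3 members, against -0.22 over the 257 miRNAs. Of these 3 members, 2 reached a 2-fold higher level and none a 2-fold lower one. Over all 257 miRNAs, 15.6% (40 miRNAs) reached a 2-fold higher level and 17.5% (45 miRNAs) a 2-fold lower one. Without scaling the counts over all miRNAs were 59 higher and 13 lower, while 2 of the 3 members were still at least 2-fold higher. Low-numbered miRNAs stood higher in general: of the 98 measured miRNAs numbered below 200, 34.7% reached 2-fold, and their median was 0.61.

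The 14-base probe of miR-181a-5p, the member most studied in T cells and osteoarthritis, had a lowest, median and highest spot intensity of 535, 581.5 and 623 on the Col2a1Tsc1KO array. On the control array its spots had 175, 185 and 206. The 13-base probe had 196, 217 and 240 on the Col2a1Tsc1KO array and 64.8, 69.9 and 76.4 on the control array. With both probes the spots of the 2 arrays did not overlap, also after scaling. The log2 difference of miR-181a-5p was 1.23 ± 0.016 (SE over spots), or 2.35-fold, and each of its probes gave 1.23. It ranked 30 among the 257 miRNAs, counted from the highest difference.

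The 14-base probe of miR-181b-5p, the member linked to NF-kB signalling in vessels, had a lowest, median and highest spot intensity of 254, 279 and 298 on the Col2a1Tsc1KO array, and 88.8, 97.8 and 109 on the control array. The 13-base probe had 149, 170.5 and 190 on the Col2a1Tsc1KO array and 53.8, 64.5 and 73.1 on the control array. Again the spots of the 2 arrays did not overlap, with or without scaling. The log2 difference was 1.06 ± 0.021, or 2.08-fold, from 1.03 with the 13-base probe to 1.09 with the 14-base probe. It ranked 36 of 257.

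**Figure D1:**
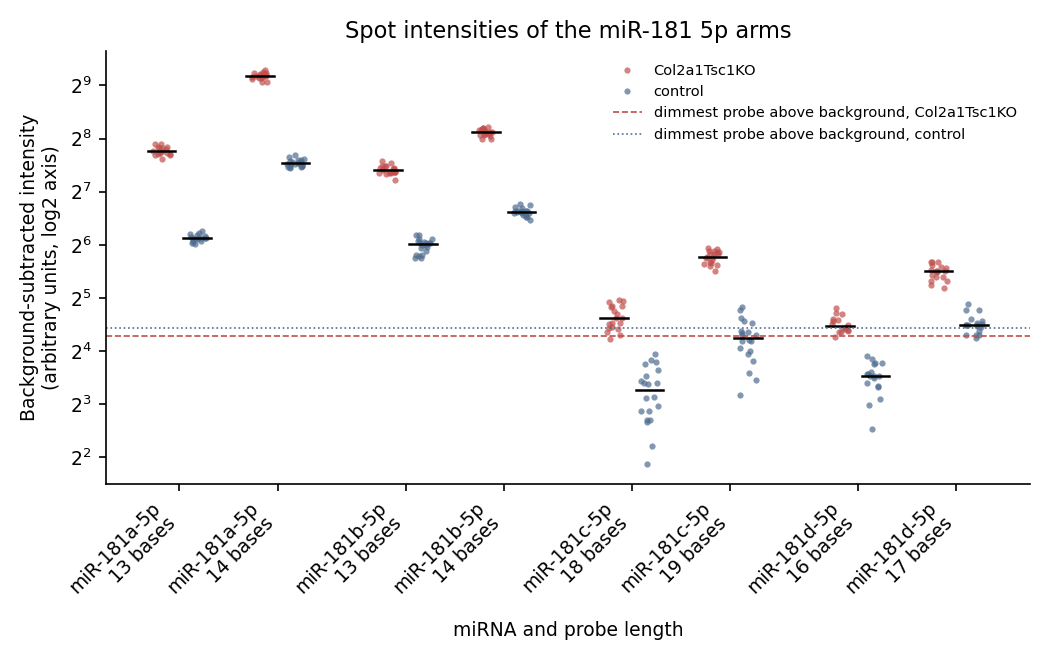
Background-subtracted intensity of every usable spot (log2 axis, arbitrary units, not scaled between arrays) for the 2 probes of each miR-181 5p arm, Col2a1Tsc1KO left of control, with the median as a bar and the dimmest probe well above background on each array as a line. The probes of miR-181a-5p and miR-181b-5p lie well clear of the lines on both arrays, and those of miR-181c-5p and miR-181d-5p lie near or below the line on the control array.

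The chromosome 8 pair was dim. For miR-181d-5p the 17-base probe had a lowest, median and highest spot intensity of 36.6, 45.6 and 51.3 on the Col2a1Tsc1KO array and 19.0, 22.5 and 29.7 on the control array. All 18 usable spots were well above background on the Col2a1Tsc1KO array and 12 of 18 on the control array. The spots did not overlap as deposited but did after scaling, when the lowest Col2a1Tsc1KO spot came to 27.5. From this probe the log2 difference was 0.56 ± 0.054, or 1.48-fold, at rank 60 of 257. The 16-base probe was well above background on the Col2a1Tsc1KO array alone, with a median of 22.2 there and 11.6 on the control array, and did not enter the difference.

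miR-181c-5p, which is made from the same locus as miR-181d-5p, had a lowest, median and highest spot intensity of 45.3, 54.8 and 61.7 with its 19-base probe on the Col2a1Tsc1KO array. On the control array the same probe had 9.04, 19.1 and 28.4, and 5 of 20 spots were well above background. The spots stayed apart after scaling. The 18-base probe had 18.8, 24.5 and 31.2 on the Col2a1Tsc1KO array and 3.66, 9.59 and 15.4 on the control array, and its spots overlapped after scaling. The scanner software marked miR-181c-5p as detected on both arrays. Because both probes were below the background limit used here on the control array, only a bound is given. It sets the Col2a1Tsc1KO signal over the dimmest probe well above background on the control array, which had an intensity of 21.6, both after scaling. At this scaling and over both probes, miR-181c-5p was at least 1.28-fold higher on the Col2a1Tsc1KO array, and at least 1.90-fold by the 19-base probe alone. The 18-base probe reached no bound above 1.

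Of the 8 5p probes, 5 passed the background limit on each of the 2 arrays, both of miR-181a-5p, both of miR-181b-5p and the 17-base probe of miR-181d-5p. Of these 5, 4 had every Col2a1Tsc1KO spot above every control spot after scaling, against 29.2% of the 476 probes of all miRNAs that passed on each array. Before scaling, 5 of 5 did so, against 40.1% of the 476. The other 3 probes passed on the Col2a1Tsc1KO array only, which favours a position above control, and are not counted here.

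**Figure D2:**
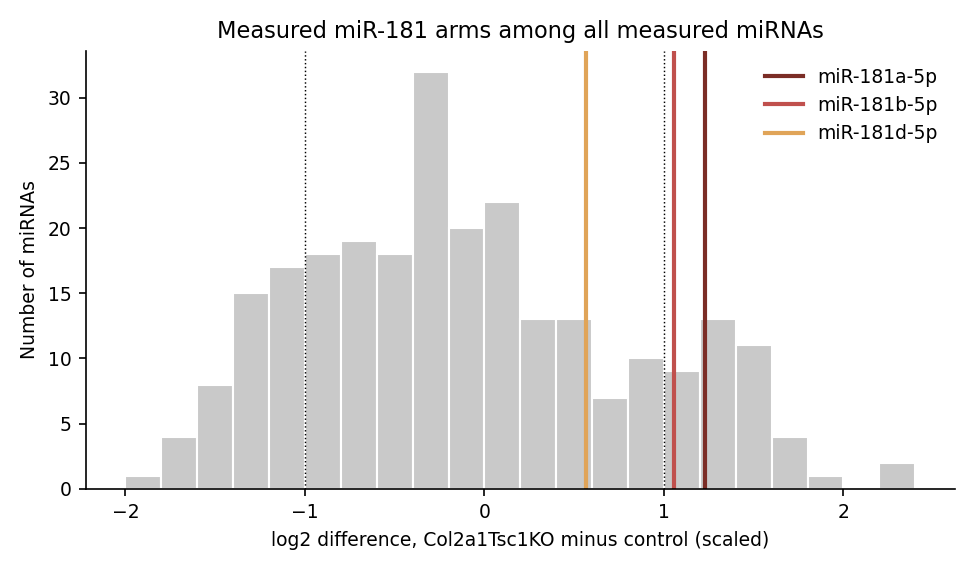
Histogram of the scaled log2 differences, Col2a1Tsc1KO minus control, of the 257 miRNAs well above background on both arrays, with solid lines at the 3 measured miR-181 arms and dotted lines at 2-fold lower and higher. miR-181a-5p (1.23) and miR-181b-5p (1.06) lie beyond the upper dotted line and miR-181d-5p (0.56) below it.

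Differences between members do not depend on the scaling constant. The log2 difference of miR-181a-5p exceeded that of miR-181b-5p by 0.17 ± 0.026, or 6.52 SE over spots, and ran from 0.13 to 0.21 above it under 15 other settings. It exceeded that of miR-181d-5p by 0.67 ± 0.056, and by 0.076 to 1.12 under the 14 settings that measured both. The log2 difference of miR-181b-5p exceeded that of miR-181d-5p by 0.50 ± 0.058 (-0.12 to 0.95 under other settings). That order turned in the deposited log2 table. These errors leave out the variation between mice, so whether the members differ between genotypes by unequal amounts could not be tested.

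The submitters' deposited log2 table is a separate summary of the same arrays. In it miR-181a-5p had 8.24 on the Col2a1Tsc1KO array and 6.87 on the control array, and miR-181b-5p had 7.23 on the Col2a1Tsc1KO array and 6.06 on the control array. miR-181c-5p had 4.86 on the Col2a1Tsc1KO array and 2.97 on the control array, where its probes were below the background limit, so these values give no measured difference. miR-181d-5p had 4.57 on the Col2a1Tsc1KO array and 3.28 on the control array, a difference of 1.29. No source used here says how that table was made. Its columns were set against the scanner signals of 304 miRNAs, as a description with no test. The Spearman rank correlation with summed probe totals was 0.993 on the Col2a1Tsc1KO array and 0.995 on the control array, and with the software's gene totals 0.709 on the Col2a1Tsc1KO array and 0.654 on the control array. Against the log2 of the summed probe totals the slope was 1.01 on the Col2a1Tsc1KO array and 1.05 on the control array, over the 303 miRNAs with positive totals. Against the log2 of the gene totals it was 0.819 on the Col2a1Tsc1KO array and 0.837 on the control array. Its column medians, -3.32 for Col2a1Tsc1KO and -3.26 for control, are also its floors. With each column sorted on its own, the 200 highest values were the same numbers in both columns. They match by rank and not miRNA by miRNA. How the columns were brought to the same values is not stated.

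**Figure D3:**
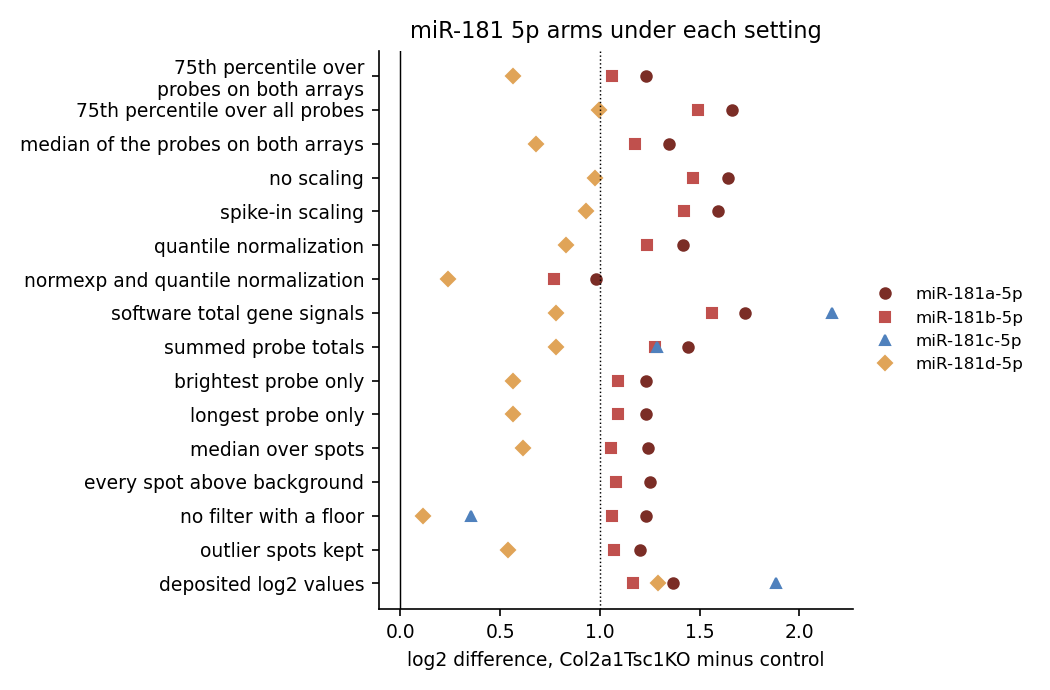
Log2 difference, Col2a1Tsc1KO minus control, of each miR-181 5p arm at the setting reported in the text (top row) and under 15 other settings, with a solid line at 0 and a dotted line at 2-fold. Every point lies above 0, those of miR-181c-5p resting on a control level below the background limit, and miR-181a-5p and miR-181b-5p fall under the dotted line only with normexp and quantile normalization together (0.98 and 0.77).

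The 3p arms, cut from the opposite side of the same hairpins and usually less abundant, differ between loci and so can mark a locus where the 5p arms cannot. Of the 6 arms with probes, 1 was well above background, and on the Col2a1Tsc1KO array only. Of all 1247 miRNAs, 39 were so on that array only and 24 on the control array only. The arm was miR-181a-1-3p from chr1:137966508-137966529, whose mature sequence is shown with its seed in capitals because it is specific to the chromosome 1 locus.

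miR-181a-1-3p: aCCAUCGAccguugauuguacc

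Its 18-base probe had a lowest, median and highest spot intensity of 21.6, 26.1 and 30.8 on the Col2a1Tsc1KO array, with all 18 usable spots well above background. On the control array it had 2.32, 9.01 and 15.2, with none of 20 well above background. The 17-base probe had medians of 16.3 on the Col2a1Tsc1KO array and 4.50 on the control array, and 4 of 19 spots on the Col2a1Tsc1KO array were well above background. With both probes the spots did not overlap before scaling. After scaling, the lowest Col2a1Tsc1KO spot of the 18-base probe came to 16.3, against a highest control spot of 15.2, while that of the 17-base probe came to 8.50, against 10.2 on the control array, so its spots overlapped. The signal was too dim for a bound above 1, so no fold is given. With no background filter and a floor, its log2 difference was -0.35, a value that rests on the floor. The 18-base probe left 2 bases unpaired with miR-181a-2-3p and with miR-181c-3p. With miR-181a-2-3p, from chromosome 2, the 17-base probe left only 1 unpaired.

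The other 5 arms, miR-181a-2-3p, miR-181b-1-3p, miR-181b-2-3p, miR-181c-3p and miR-181d-3p, stayed below that limit on both arrays. Their probe medians ran below 0 on both arrays, with overlapping spots. None of the 4 miR-181a-2-3p probes paired in full with the RefSeq mature arm, and the effect of this on their signal was not tested.

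**Figure D4:**
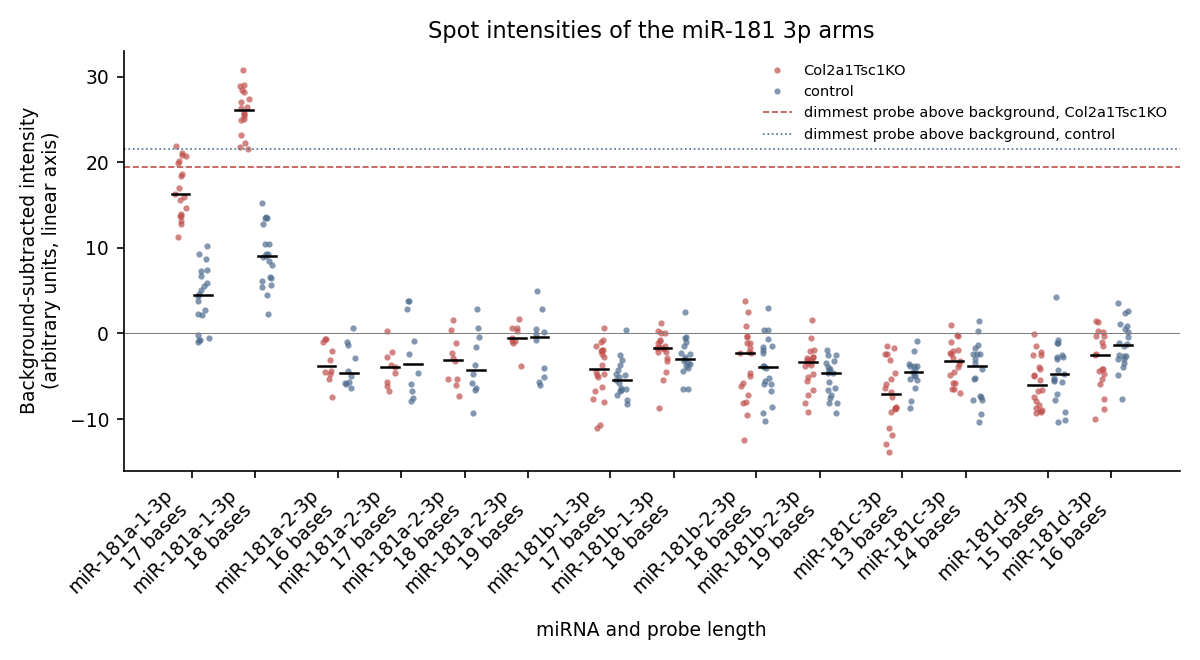
Background-subtracted intensity of every usable spot (linear axis, arbitrary units, not scaled between arrays) for the probes of the 6 miR-181 3p arms, Col2a1Tsc1KO left of control, with medians as bars and the dimmest probe well above background on each array as lines. Spots of miR-181a-1-3p on the Col2a1Tsc1KO array reach 30.8, and those of the other 5 arms scatter around and below 0 on both arrays.

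Outside the family, the 3 miRNAs with a log2 difference nearest to the family median were let-7a-5p at 1.03 ± 0.014, miR-1839-5p at 1.02 ± 0.052 and miR-149-5p at 1.099 ± 0.050. The likeness is in a single difference between 2 arrays. In the list of miRNAs studied in osteoarthritic cartilage, 10 of 13 could be measured, of which 8 reached a 2-fold higher level and 1 a 2-fold lower one. Over all 257 miRNAs these shares were 15.6% and 17.5%, and 34.7% of those numbered below 200 reached the higher level. The list was chosen with earlier results of these data known, so its counts are no independent support. It shares miR-140-5p and miR-455-3p with the chondrocyte list and miR-223-3p with the leukocyte list. The median of the 10 was 1.23. The list ran from miR-223-3p at -1.17 to the p53-induced miR-34a-5p at 2.28.

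The marker lists of cartilage and other cells did not move in 1 direction. The 6 measured chondrocyte miRNAs had a summed intensity of 6368 on the Col2a1Tsc1KO array and 2107 on the control array, and a median log2 difference of 1.19. Their differences ran from -0.03 for miR-455-5p to 1.71 for miR-455-3p. Most of both sums came from the 2 miR-140 arms. miR-140-5p and miR-140-3p had 3128 and 2771 on the Col2a1Tsc1KO array, and 907 and 1038 on the control array. The 5 measured leukocyte miRNAs of 7 summed to 5182 on the Col2a1Tsc1KO array and 8387 on the control array, with log2 differences from -1.17 for the myeloid miR-223-3p to 0.64 for the lymphocyte miR-150-5p. miR-150-3p and miR-223-5p of that list passed the background limit on neither array. The 4 measured muscle miRNAs of 6 summed to 850.1 on the Col2a1Tsc1KO array and 1223 on the control array. Their log2 differences ran from -0.996 for miR-133b-3p to 0.05 for miR-206-3p. Of the 4, 3 were negative, against 152 of all 257 measured miRNAs. The 2 measured red cell miRNAs of 4 summed to 4003 on the Col2a1Tsc1KO array and 2030 on the control array. Their log2 differences were 0.55 for miR-451a and 1.51 for miR-144-3p. The 2 endothelial miRNAs summed to 2279 on the Col2a1Tsc1KO array and 1349 on the control array. After scaling, their log2 differences were 0.35 for miR-126-3p and 0.14 for miR-126-5p. The part of any of these cells in the miR-181 values was not tested, and a change in cell makeup and a change in RNA per cell cannot be told apart in such bulk samples.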

How the data were processed

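Agilent Feature Extraction 10.7 (per the submitters' processing notes) made the deposited scanner files. Per the file headers they hold a background-subtracted intensity per spot, and arrays were not scaled to each other. The submitters also deposited log2 values, 1 per miRNA, made in a way that no source used here states. Samples were grouped by the genotype label.

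After removal of outlier spots, the log2 intensities of the others gave a mean per probe. Probes counted as well above background if more than 50% of their usable spots carried that mark. Arrays were scaled to the 75th percentile of the 476 probes so marked on both. The difference of a miRNA is the mean over such probes. The number of arrays limits the precision. Alternatives covered scaling, background correction with limma 3.58.1 (normexp, offset 50) followed by quantile normalization, probe summaries, filters and the deposited table. The steps were run on simulated copies of the control array with known changes and spot noise only. These copies held no variation between mice and used their own background mark, so they do not test the background limit. Mature sequences came from RefSeq, and all 10 family names matched.

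The members and lists were chosen with earlier results of these data known. The text names all 5p and 3p arms, the 3 miRNAs nearest to the family median, and at most the 2 highest and 2 lowest of each list. Outside that rule it names miR-140-5p and miR-140-3p, as the arms of the defining cartilage miRNA, and the 2 leukocyte arms below the background limit. miR-486-5p of the red cell list had no probe under that name on the array. Other names were not searched, so no value is given for it here.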

Additional observations from a re-analysis of the deposited data

How the results depend on the processing

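No paired analysis was possible because each group had 1 array. All 15 alternatives, 1 of them (summed probe totals) chosen after seeing the data, left every measured 5p arm with a positive difference. In some of them the median over all miRNAs was positive too, as with no scaling (0.19) and software total gene signals (0.30). In others it was 0 or below. The family median of 1.06 became 1.49 when all probes set the 75th percentile, 1.17 with the median of the probes, 1.47 with no scaling, 1.42 with spike-in scaling, 1.23 with quantile normalization, 0.77 with normexp and quantile normalization together, 1.64 with software total gene signals, 1.28 with summed probe totals, 1.09 with the brightest and 1.09 with the longest probe, 1.17 when every spot had to be above background, 0.71 with no filter and a floor, and 1.33 in the deposited table. Medians over 4 members (totals, floor, deposited values) include miR-181c-5p, and that over spots all above background leaves out miR-181d-5p. The number at least 2-fold higher, 2 of 3, became 0 of 3 with normexp and quantile normalization together (2 of 3 with quantile normalization alone) and 4 of 4 in the deposited values, where the control level of miR-181c-5p is below the background limit. miRNAs at least 2-fold apart in either direction numbered 24 with both steps and 77 with quantile normalization alone, in place of 85, and the cause was not tested. With a floor miR-181d-5p stood at 0.11 and miR-181c-5p at 0.35. The median over all miRNAs moved by 0.41 with no scaling, 0.43 when all probes set the 75th percentile, 0.36 with spike-ins, 0.12 with the median of the probes and 0.19 with quantile normalization. Calls at least 2-fold higher and lower were 59 and 13 when all probes set the 75th percentile, 55 and 14 with spike-ins, 80 and 24 with software totals, 52 and 38 with summed probe totals, and 15 and 9 with normexp and quantile normalization, against 40 and 45.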

Other observations

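The position column of the scanner files placed all 14 family probes of plus-strand miRNAs inside the RefSeq mature arms, allowing 3 bases at each end. It placed 0 of the 8 probes of the minus-strand miR-181c and miR-181d there, so positions were taken from RefSeq. The software's total gene signal of miR-181d-5p on the control array was 16.3, against 13.4 for the sum of its probe totals, while on the Col2a1Tsc1KO array both were 26.7. For miR-181c-5p the totals agreed on the Col2a1Tsc1KO array at 31.4, and on the control array the gene total was 7.36 against a sum of 11.1. No explanation was tested for these values.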
